A study of Mus musculus with 17 samples.

Results

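Glycolysis, pyruvate oxidation and the tricarboxylic acid (TCA) cycle were followed through 42 genes in brown adipose tissue (BAT), the heat-producing fat depot. The genes were chosen by symbol, for the enzymes, carriers and regulators that take glucose to pyruvate, pyruvate into the mitochondrion and acetyl-CoA round the cycle. They are 42 of 55414 genes in the table, and all 42 were among the 17717 genes with enough counts to test. C57BL/6J mice in 4 groups, wild-type and knockout on each of 2 diets, were sampled at a housing temperature of 22 °C. The wild-type group on standard chow had 4 libraries and the knockout group on chow had 3. The wild-type and knockout groups on a high-fat diet (HFD, 45% of energy as fat, for 12 weeks) had 5 libraries each. In the knockout, labelled Acbp BAd-KO, brown adipocytes alone are meant to lose acyl-CoA-binding protein, and other cells of the depot keep the gene. The sources used here give neither the Cre driver nor the age and sex of the mice. No label ties a library to an animal, so a p-value here rests on the spread of libraries, which may be technical.

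In this pathway hexokinases trap glucose as glucose 6-phosphate, and a chain of cytosolic enzymes turns it into pyruvate. Pyruvate can be reduced to lactate, or enter mitochondria through the MPC1 and MPC2 carrier. There the pyruvate dehydrogenase (PDH) complex makes acetyl-CoA, its kinases switch the complex off and its phosphatases switch it on, while pyruvate carboxylase makes oxaloacetate instead. Brown fat is known to burn fatty acids and to take up much glucose when it makes heat.

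Values are CPM, the share of a library's counts per 1e+06, scaled with trimmed mean of M-values (TMM) factors, which set the bulk of genes equal between libraries. A gene was called at an adjusted p of 0.05 or less, from the quasi-likelihood test of edgeR with Benjamini-Hochberg adjustment over all genes tested. Fold changes are log2 values ± standard error (SE). Library totals ranged from 39.6 to 105 megacounts, so counting error is small for all members except the weakest, Pdk3 and Pdp1. Pdp1 had 152 to 239 counts in each chow library. Dbi, the gene for acyl-CoA-binding protein, ran from 949 to 1100 CPM for wild-type against 88.3 to 103 CPM for knockout on chow, and from 658 to 795 CPM against 111 to 165 CPM on HFD. Brown adipocyte markers summed to 7540 to 11400 CPM over the libraries. Skeletal muscle markers (25 genes) summed to 550 to 3380 CPM for wild-type and 32.1 to 1960 CPM for knockout on chow, and to 35.1 to 8800 CPM and 46.5 to 14600 CPM on HFD. Hepatocyte markers (18 genes, 7 of them at 0 in every chow wild-type library) reached 2.06, 72.6, 220 and 273 CPM in the same order. HFD wild-type 3 stood apart: it was the lowest of its group for 38 of 42 members, against 23.4% of all genes tested, and had the lowest brown adipocyte sum (7540 CPM) and the highest macrophage sum (132 CPM) of all libraries. HFD knockout 1 was the lowest of its group for 28 of 42 members, against 21.6% of all genes. The part of cell makeup in these positions was not tested. No label names a run, so a gap of over 10 between sorted library numbers was taken to start a new one. The library numbers of chow and HFD formed separate runs, so diet and run cannot be told apart. Genotype followed run in part: all 5 HFD wild-type libraries and 1 HFD knockout library were in run 3, the other 4 HFD knockout libraries were in run 4, and chow knockout was all in run 2 while chow wild-type was split over runs 1 and 2.

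Hk1, Idh2, Mpc1 and Pcx were the members called for diet in both genotypes under every alternative setting, so the DNA before and just after their start sites is shown. Each window runs from 250 bases before a RefSeq start to 50 bases after it, in build GRCm38.p6 (the counts use GRCm39), 5′ to 3′ on the strand of the gene. Where 2 starts are listed, the window with the higher share of G and C is shown, a choice made after the sequences were read. Capitals mark every match, on either strand, to any of the 6 motifs named in the next paragraph. The windows left out for Hk1, Mpc1 and Pcx hold no match to any of these motifs. Hk1 lies at chr10:62340372-62340671 on the minus strand, Idh2 at chr7:80115301-80115600 on the minus strand, Mpc1 at chr17:8283537-8283836 on the plus strand and Pcx at chr19:4510222-4510521 on the plus strand.
Hk1: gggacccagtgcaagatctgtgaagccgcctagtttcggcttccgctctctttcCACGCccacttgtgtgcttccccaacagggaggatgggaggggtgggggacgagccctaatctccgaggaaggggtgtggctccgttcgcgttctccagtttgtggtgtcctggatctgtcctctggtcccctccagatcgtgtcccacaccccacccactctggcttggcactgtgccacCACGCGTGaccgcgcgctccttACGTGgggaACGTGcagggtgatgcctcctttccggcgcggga
Idh2: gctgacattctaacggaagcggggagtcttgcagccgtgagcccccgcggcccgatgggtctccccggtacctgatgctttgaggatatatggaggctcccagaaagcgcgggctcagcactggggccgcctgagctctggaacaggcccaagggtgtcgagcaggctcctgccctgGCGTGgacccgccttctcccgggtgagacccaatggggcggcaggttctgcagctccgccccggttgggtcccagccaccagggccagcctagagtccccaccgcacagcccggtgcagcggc
Mpc1: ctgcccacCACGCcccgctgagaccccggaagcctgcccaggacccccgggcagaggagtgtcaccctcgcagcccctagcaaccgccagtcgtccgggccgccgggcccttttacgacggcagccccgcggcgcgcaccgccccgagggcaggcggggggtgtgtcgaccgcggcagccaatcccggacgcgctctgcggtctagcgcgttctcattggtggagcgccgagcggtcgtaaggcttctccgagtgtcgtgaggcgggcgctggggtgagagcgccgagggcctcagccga
Pcx: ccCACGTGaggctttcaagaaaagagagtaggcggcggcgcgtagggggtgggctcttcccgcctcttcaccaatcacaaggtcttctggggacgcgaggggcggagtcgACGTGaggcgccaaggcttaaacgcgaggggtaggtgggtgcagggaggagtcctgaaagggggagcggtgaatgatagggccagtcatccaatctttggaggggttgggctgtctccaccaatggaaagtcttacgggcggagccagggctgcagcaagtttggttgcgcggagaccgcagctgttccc

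The Hk1 window holds ACGTG 2 times and GCGTG 3 times, the Idh2 and Mpc1 windows hold GCGTG 1 time each, and the Pcx window holds ACGTG 3 times, of which 2 are the strands of 1 CACGTG. RefSeq promoters of 300 bases were found for 40 of 42 members (not Pdp1 and Idh3a). AAGGTCA, the core bound by estrogen-related receptors, was in promoters of 3 members (Eno1, Ogdh and Tpi1) and in 4.72% of all 32851 promoters. ACGTG, the core of hypoxia response elements, was in promoters of 17 members and in 19.6% of all. The variant GCGTG was in promoters of 23 members and in 32.4% of all. The E-box CACGTG was in promoters of 6 members and in 7.15% of all. TGACG, part of cyclic AMP response elements, was in promoters of 16 members and in 20.8% of all. GCATGCG, part of the nuclear respiratory factor motif, was in promoters of 3 members and in 3.58% of all. These member counts are of genes, with several promoters counted once, while the percentages are of promoters. Of the 59 promoters of members, 3 held AAGGTCA, 24 ACGTG, 30 GCGTG, 8 CACGTG, 21 TGACG and 4 GCATGCG. Some promoters of the same member share bases. ACGTG and CACGTG overlap, and a match is a run of letters and not a bound site.

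In wild-type BAT 22 of 42 members changed between chow and HFD, 3 higher and 19 lower, against 32.1% of all genes tested (16.9% higher and 15.2% lower). A further 3 members had an unadjusted p under 0.05 only, making 25 of 42, against 42.4% of all genes. The median log2 change was -0.23 over the members and 0.02 over all genes. It was -0.15 without HFD wild-type 3 and 0.23 with library totals, where the median of all genes was 0.49. In knockout BAT 11 members changed, 4 higher and 7 lower, against 25.8% of all genes (12.8% higher and 13.1% lower), with medians of -0.06 and 0.03. The knockout members' median was -0.28 with the HFD runs as a term, where HFD knockout 1 alone sets the HFD knockout level. A muscle cut at 1000 CPM removed HFD wild-type 1 and HFD knockout 2, 4 and 5. Chow libraries were kept, with sums up to 3380 CPM. That cut left HFD knockout 1 and 3, with a knockout median of -0.19. The median was -0.14 without the HFD libraries with a hepatocyte sum above 100 CPM (HFD wild-type 5 and HFD knockout 4 and 5). It was -0.01 without HFD knockout 1 and 0.20 with library totals, where the median of all genes was 0.30. In knockout 15 of 42 members had an unadjusted p under 0.05, against 37.8% of all genes. The chow and HFD groups did not overlap for 18 members in each genotype, against 24.8% of all genes in wild-type and 31.6% in knockout. The same 10 genes were called in the same direction in both genotypes, and none in opposite directions. These are changes relative to the median of all genes. Scaling by library totals alone raised that median by 0.476 in wild-type and 0.265 in knockout, and the split of calls then became 20 higher and 2 lower in wild-type and 15 higher and 3 lower in knockout. The sign of the estimate turned for 19 of 42 members in wild-type, 5 of them among the 22 called, and for 14 in knockout, none of them among the 11 called. Under both scalings Hk1, Idh2 and Pdp1 rose and Mpc1 and Pcx fell in wild-type. In knockout Hk1, Idh2, Pdp1 and Tpi1 rose and Mpc1, Pcx and Pdp2 fell under both. Since this is bulk tissue, fewer cells of a type and less RNA per cell cannot be told apart.

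**Figure D1:**
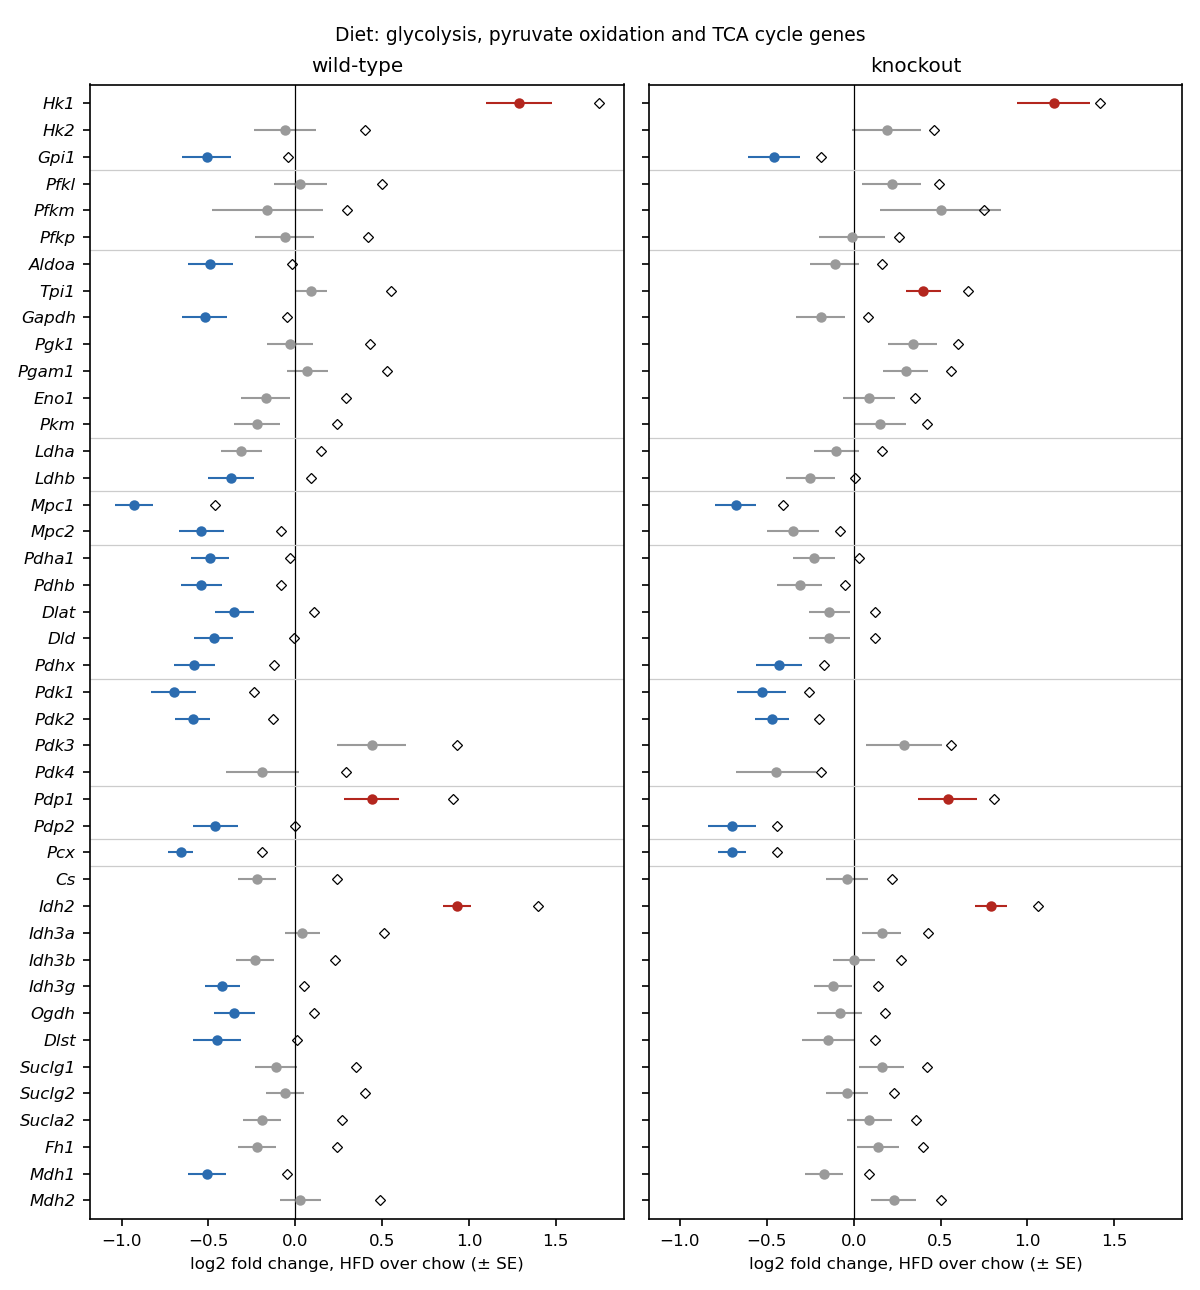
Log2 fold change of the 42 members, HFD over chow, in wild-type (left) and knockout (right); circles with bars are TMM-scaled estimates ± SE, red where called higher, blue where called lower and grey where not called, and open diamonds are the estimates with library totals alone. Hk1 (1.29 and 1.15) and Idh2 (0.93 and 0.79) lie to the right and Mpc1 (-0.93 and -0.68) and Pcx (-0.66 and -0.70) to the left under both scalings, while most other wild-type calls move to near 0 under library totals.

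At the entry to glycolysis, hexokinase 1 rose and Hk2, the insulin-regulated form, was not called. For Hk1 the wild-type libraries gave 30.3, 19.9, 28.1 and 41.7 CPM on chow and 68.8, 81.4, 44.4, 81 and 91.1 CPM on HFD, and the knockout libraries 25.2, 24.6 and 22.5 CPM on chow and 52.9, 48.2, 57.1, 50.4 and 59.4 CPM on HFD. All HFD libraries lay above all chow libraries of their genotype, with log2 1.29 ± 0.19, adjusted p = 0.000155 in wild-type and log2 1.15 ± 0.21, adjusted p = 0.00122 in knockout. Hk1 is broadly expressed across cell types. Macrophage markers (7 genes) summed to 36.1 to 39.8 CPM on chow and 56.6 to 132 CPM on HFD in wild-type, and to 33.3 to 44.7 CPM and 47.1 to 89.4 CPM in the knockout groups. Endothelial markers (6 genes) summed to 377 to 470 CPM and 492 to 561 CPM in wild-type, and 387 to 413 CPM and 401 to 491 CPM in knockout. The part of these cells in the Hk1 change was not tested. Hk2 in wild-type was at 612, 630, 583 and 566 CPM on chow and 514, 576, 413, 661 and 710 CPM on HFD, and in knockout at 637, 522 and 408 CPM on chow and 606, 711, 674, 624 and 357 CPM on HFD. The groups overlapped, with log2 -0.06 ± 0.18, adjusted p = 0.845 in wild-type and log2 0.19 ± 0.20, adjusted p = 0.526 in knockout. In wild-type Hk2 turned to 0.40 (adjusted p = 0.0404) with library totals and to 0.04 without HFD wild-type 3. Gpi1, which makes fructose 6-phosphate, fell in both genotypes. For Gpi1 the wild-type libraries gave 607, 923, 954 and 830 CPM on chow and 572, 575, 440, 698 and 620 CPM on HFD, and the knockout libraries 965, 811 and 748 CPM on chow and 525, 597, 675, 676 and 591 CPM on HFD. The knockout groups did not overlap while the wild-type groups met through chow wild-type 1, and the changes were log2 -0.51 ± 0.14, adjusted p = 0.0109 and log2 -0.46 ± 0.15, adjusted p = 0.0355. Gpi1 lost its call with library totals in both genotypes. The knockout call held in 9 of 20 alternative settings and was lost without chow knockout 2 or 3 or HFD knockout 1, 2 or 5.

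**Figure D2:**
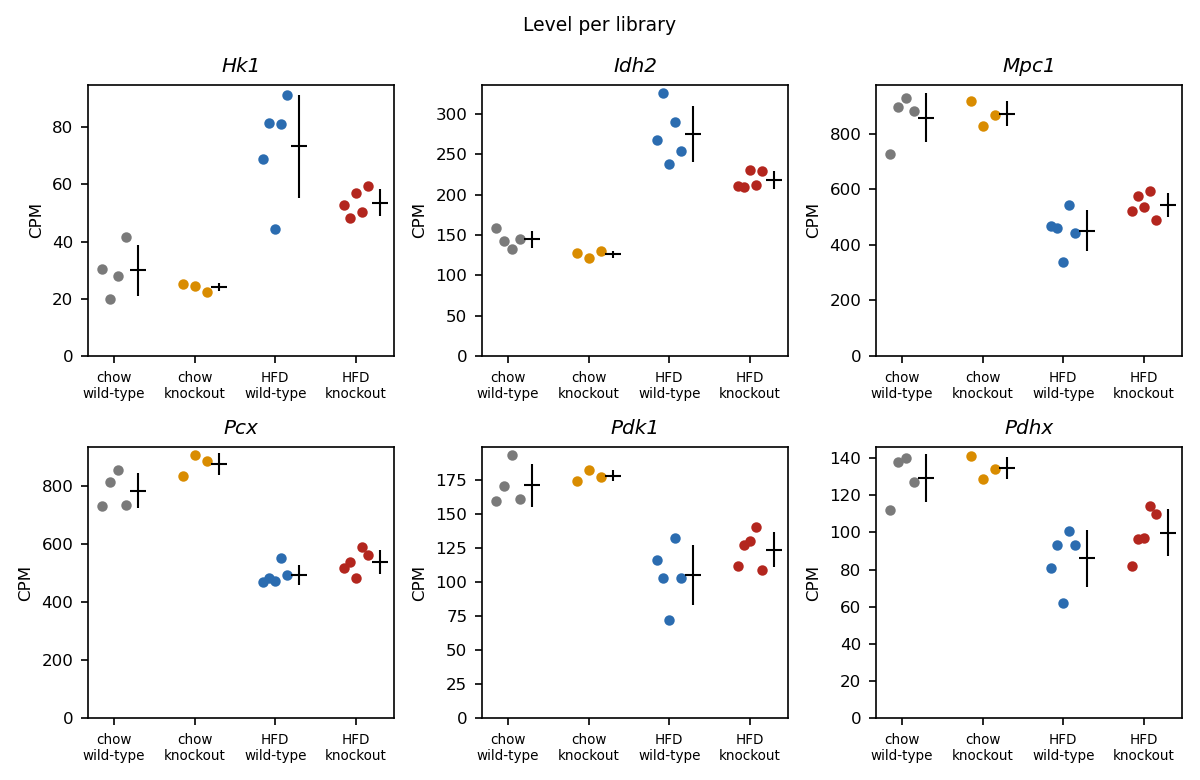
CPM of 6 members in each library (points) by group, with mean ± SD beside them and axes from 0. Hk1 and Idh2 are higher and Mpc1, Pcx, Pdk1 and Pdhx lower in the HFD groups than in the chow groups of the same genotype, with no overlap in either genotype, and HFD wild-type 3 is the lowest HFD wild-type point for Hk1 (44.4), Idh2 (238), Mpc1 (339), Pdk1 (72.1) and Pdhx (62).

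None of the 3 phosphofructokinase genes, which commit sugar to glycolysis, was called for diet in either genotype, though with library totals Pfkl was called higher in wild-type (log2 0.50, adjusted p = 0.00266) and knockout (log2 0.49, adjusted p = 0.0119) and Pfkp in wild-type (log2 0.42, adjusted p = 0.0262). Pfkm is the muscle form. Pfkm in wild-type was at 73, 61.3, 71 and 51.4 CPM on chow and 107, 53.5, 34.2, 51.5 and 42 CPM on HFD, and in knockout at 52.1, 52.9 and 62.4 CPM on chow and 45.3, 142, 51.1, 79.1 and 75.9 CPM on HFD. The highest values, 107 and 142 CPM, were in HFD wild-type 1 and HFD knockout 2, the libraries with muscle marker sums of 8800 and 14600 CPM. The part of muscle RNA in the Pfkm values was not tested. Pfkl, the liver form, ranged from 395 to 723 CPM, and Pfkp, the platelet form, ranged from 78.2 to 148 CPM.

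**Figure D3:**
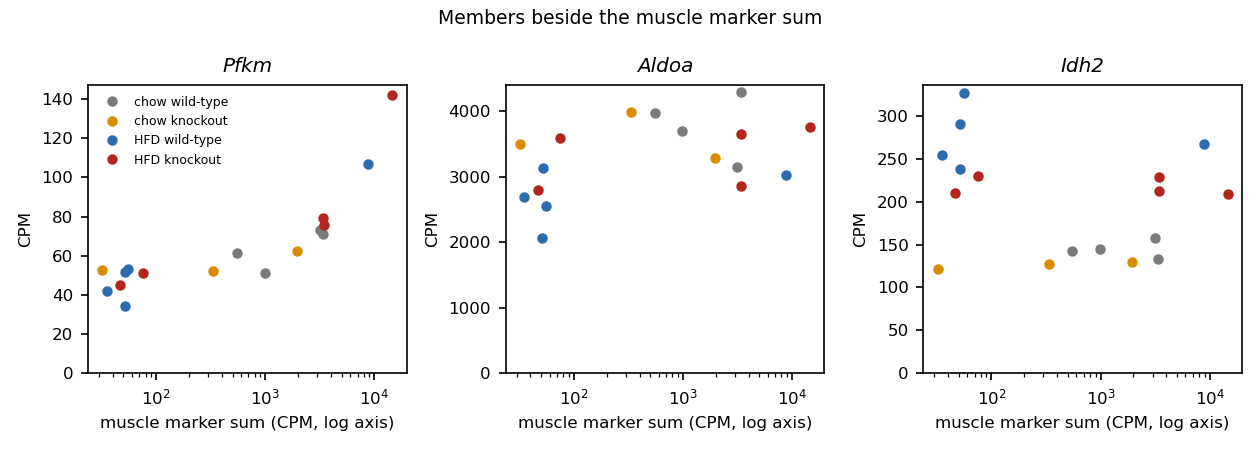
CPM of Pfkm, Aldoa and Idh2 (vertical axes, from 0) against the summed CPM of 25 skeletal muscle markers (log axis) in each library, coloured by group. Pfkm is highest in the libraries with the largest muscle sums (107 and 142 CPM). Idh2 is higher in the HFD than in the chow libraries at muscle sums up to 3380 CPM, and above that sum there are HFD libraries only.

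Of the 7 lower glycolysis genes, Aldoa (aldolase A) and Gapdh (glyceraldehyde 3-phosphate dehydrogenase) fell in wild-type and Tpi1 (triose phosphate isomerase) rose in knockout. For Gapdh the wild-type libraries gave 2400, 2900, 2870 and 2950 CPM on chow and 2150, 1890, 1390, 2380 and 1890 CPM on HFD, and the knockout libraries 2790, 2340 and 2260 CPM on chow and 1830, 2340, 2240, 2400 and 2010 CPM on HFD. HFD lay below chow in every wild-type library, with log2 -0.52 ± 0.13, adjusted p = 0.00725. In knockout Gapdh overlapped between diets (log2 -0.19 ± 0.14, adjusted p = 0.363). Aldoa in wild-type was at 3150, 3970, 4300 and 3700 CPM on chow and 3030, 2560, 2070, 3130 and 2700 CPM on HFD, and in knockout at 3990, 3500 and 3290 CPM on chow and 2800, 3760, 3590, 3660 and 2860 CPM on HFD. The wild-type groups did not overlap, with log2 -0.49 ± 0.13, adjusted p = 0.0107, while in knockout the value was log2 -0.11 ± 0.14, adjusted p = 0.619. Neither wild-type call held with library totals. A further row with the symbol Aldoa carried 1 to 20 counts per library and was left apart. For Tpi1 the wild-type libraries gave 210, 223, 259 and 223 CPM on chow and 261, 267, 205, 259 and 222 CPM on HFD, and the knockout libraries 205, 204 and 211 CPM on chow and 240, 305, 258, 283 and 279 CPM on HFD. The knockout groups did not overlap, with log2 0.40 ± 0.10, adjusted p = 0.00761, and the wild-type value was log2 0.09 ± 0.09, adjusted p = 0.504. The Tpi1 call was lost without the HFD libraries with a muscle sum above 1000 CPM, which leaves HFD knockout 1 and 3. It was also lost with the HFD runs as a term, where HFD knockout 1 alone sets the HFD knockout level. Pgk1, Pgam1, Eno1 and Pkm, which carry the sugar on to pyruvate, were not called in either genotype, and all 4 were called higher in both genotypes with library totals (log2 0.24 to 0.60).

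Lactate dehydrogenase B, the form that favours pyruvate, fell in wild-type and lactate dehydrogenase A was not called. Ldhb in wild-type was at 305, 339, 342 and 304 CPM on chow and 240, 276, 171, 318 and 245 CPM on HFD, and in knockout at 317, 283 and 298 CPM on chow and 217, 244, 227, 278 and 288 CPM on HFD. The wild-type groups overlapped, with log2 -0.37 ± 0.13, adjusted p = 0.0443, and this call held in 7 of 21 alternative settings, being lost without any 1 chow wild-type library and without HFD wild-type 1, 3 or 5. Ldha stood at 520 to 955 CPM with log2 -0.31 ± 0.12, adjusted p = 0.0592 in wild-type. The Ldha to Ldhb count ratio was 2.14 to 2.79 in chow wild-type and 2.20 to 3.04 in HFD wild-type.

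The mitochondrial pyruvate carrier had the deepest drop of the wild-type members. For Mpc1 the wild-type libraries gave 728, 894, 928 and 880 CPM on chow and 469, 460, 339, 543 and 441 CPM on HFD, and the knockout libraries 917, 827 and 868 CPM on chow and 521, 577, 537, 594 and 489 CPM on HFD. Every HFD library lay below every chow library of its genotype, with log2 -0.93 ± 0.11, adjusted p = 1.93e-05 in wild-type and log2 -0.68 ± 0.12, adjusted p = 0.000735 in knockout. Mpc2 in wild-type was at 273, 359, 403 and 266 CPM on chow and 222, 245, 161, 266 and 221 CPM on HFD, and in knockout at 341, 330 and 320 CPM on chow and 234, 264, 259, 286 and 254 CPM on HFD. Mpc2, the partner subunit, did not overlap between diets in either genotype (chow wild-type 4 and HFD wild-type 4 both round to 266 CPM), but was called in wild-type alone (log2 -0.54 ± 0.13, adjusted p = 0.00573), with log2 -0.35 ± 0.15, adjusted p = 0.0906 in knockout. No Mpc1 or Mpc2 difference in diet response between genotypes was called.

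All 5 PDH complex genes fell in wild-type, and 1 of 5 (Pdhx) in knockout, and with library totals none was called in either genotype. For Pdhx the wild-type libraries gave 112, 138, 140 and 127 CPM on chow and 81.1, 93.5, 62, 101 and 93 CPM on HFD, and the knockout libraries 141, 129 and 134 CPM on chow and 82, 96.2, 97, 114 and 110 CPM on HFD. Pdhx, the component that anchors the E3 enzyme, did not overlap in either genotype, with log2 -0.58 ± 0.12, adjusted p = 0.00201 and log2 -0.43 ± 0.13, adjusted p = 0.0252. Its knockout call was lost without chow knockout 2, 3 or 4 or HFD knockout 1. Pdhb in wild-type was at 781, 855, 947 and 841 CPM on chow and 574, 591, 412, 723 and 644 CPM on HFD, and in knockout at 975, 858 and 847 CPM on chow and 660, 749, 738, 800 and 647 CPM on HFD. For Pdha1 the wild-type libraries gave 1730, 1820, 1930 and 1750 CPM on chow and 1270, 1360, 951, 1610 and 1260 CPM on HFD, and the knockout libraries 1760, 1660 and 1730 CPM on chow and 1300, 1430, 1390, 1630 and 1550 CPM on HFD. These genes for the subunits of the E1 enzyme fell in wild-type, with log2 -0.54 ± 0.12, adjusted p = 0.00354 for Pdhb and log2 -0.49 ± 0.11, adjusted p = 0.00412 for Pdha1, and were not called in knockout, at log2 -0.31 ± 0.13, adjusted p = 0.0959 and log2 -0.23 ± 0.12, adjusted p = 0.181. Dld in wild-type was at 595, 652, 663 and 606 CPM on chow and 404, 494, 350, 557 and 462 CPM on HFD, and in knockout at 585, 525 and 599 CPM on chow and 475, 487, 494, 546 and 578 CPM on HFD. Dld, the E3 enzyme shared with the 2-oxoglutarate dehydrogenase complex, gave log2 -0.47 ± 0.11, adjusted p = 0.00372 in wild-type. Dlat, the E2 core, was called lower in wild-type at log2 -0.35 ± 0.11, adjusted p = 0.0214, with overlapping groups, and lost the call without chow wild-type 2 or 3. With library totals their log2 changes ran from -0.12 to 0.11 in wild-type. The interaction with genotype was called for none of the 5 (log2 0.15 to 0.33).

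Of the 4 PDH kinase genes Pdk1 and Pdk2 fell in both genotypes. For Pdk1 the wild-type libraries gave 159, 170, 193 and 161 CPM on chow and 116, 103, 72.1, 132 and 103 CPM on HFD, and the knockout libraries 174, 182 and 177 CPM on chow and 112, 127, 130, 140 and 109 CPM on HFD. Pdk2 in wild-type was at 323, 324, 345 and 346 CPM on chow and 234, 249, 169, 245 and 212 CPM on HFD, and in knockout at 339, 309 and 312 CPM on chow and 203, 232, 226, 256 and 240 CPM on HFD. All HFD libraries were below all chow libraries of the genotype for both genes. The changes in Pdk1 were log2 -0.70 ± 0.13, adjusted p = 0.000721 in wild-type and log2 -0.53 ± 0.14, adjusted p = 0.0109 in knockout, and in Pdk2 log2 -0.59 ± 0.10, adjusted p = 0.000284 and log2 -0.47 ± 0.10, adjusted p = 0.0042. With library totals Pdk1 gave -0.24 (adjusted p = 0.0511) in wild-type and lost its call in knockout, and Pdk2 lost both. The Pdk1 call in knockout was also lost without the HFD libraries with a muscle sum above 1000 CPM and with the HFD runs as a term. Both fits rest on few HFD knockout libraries. Pdk4, the kinase known to respond to fasting and fatty acids, had the highest level of the 4 per kilobase of exon. For Pdk4 the wild-type libraries gave 914, 1440, 2390 and 2040 CPM on chow and 1640, 1490, 1360, 1680 and 1260 CPM on HFD, and the knockout libraries 2300, 3280 and 2560 CPM on chow and 1850, 1560, 2030, 2180 and 2310 CPM on HFD. Its spread was wide within chow wild-type, and the diet values were log2 -0.19 ± 0.21, adjusted p = 0.52 in wild-type and log2 -0.45 ± 0.23, adjusted p = 0.158 in knockout. Pdk3 was at 0.529 to 1.22 CPM and was not called.

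The 2 PDH phosphatase genes moved apart. Pdp1 in wild-type was at 6.03, 5.37, 5.26 and 4.59 CPM on chow and 8.7, 7.66, 6.79, 6.24 and 6.61 CPM on HFD, and in knockout at 5.04, 5.53 and 4.07 CPM on chow and 6.58, 10.2, 6.85, 6.31 and 5.7 CPM on HFD. Pdp1 rose by log2 0.44 ± 0.16, adjusted p = 0.0426 in wild-type and log2 0.54 ± 0.17, adjusted p = 0.0293 in knockout, without overlap, but held in 13 of 21 and 14 of 20 alternative settings. It was lost without chow wild-type 2, 3 or 4 or HFD wild-type 1, 2 or 3, and in knockout without chow knockout 2 or 4 or HFD knockout 2. The Pdp1 call was also lost with limma-voom in both genotypes, and with chow within 1 run in wild-type. In knockout it was lost with only the compared groups in the fit and with the HFD runs as a term. For Pdp2 the wild-type libraries gave 93.6, 96.2, 107 and 97.8 CPM on chow and 66.5, 84.8, 54.2, 82 and 69.9 CPM on HFD, and the knockout libraries 117, 131 and 135 CPM on chow and 70.6, 67.8, 66.4, 86.3 and 101 CPM on HFD. Pdp2 fell, with log2 -0.46 ± 0.13, adjusted p = 0.0137 in wild-type and log2 -0.70 ± 0.14, adjusted p = 0.00226 in knockout, again without overlap. The wild-type value was 0.00 with library totals, and the knockout call held in every alternative setting.

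Pyruvate carboxylase, which feeds oxaloacetate to the cycle and to lipid synthesis, fell in both genotypes. Pcx in wild-type was at 733, 814, 855 and 736 CPM on chow and 469, 484, 474, 552 and 494 CPM on HFD, and in knockout at 835, 907 and 888 CPM on chow and 518, 539, 483, 590 and 564 CPM on HFD. No HFD library reached the lowest chow library of its genotype, with log2 -0.66 ± 0.07, adjusted p = 1.1e-05 and log2 -0.70 ± 0.08, adjusted p = 2.12e-05. The interaction estimate was -0.04. With library totals the Pcx change was log2 -0.19 (adjusted p = 0.0474) in wild-type and -0.44 (adjusted p = 0.0014) in knockout.

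In the TCA cycle Idh2, the mitochondrial NADP-dependent isocitrate dehydrogenase, rose, and none of the other 12 members did, while with library totals 9 of the 13 were called higher and none lower in wild-type, and 7 and none in knockout. For Idh2 the wild-type libraries gave 158, 142, 133 and 145 CPM on chow and 267, 326, 238, 290 and 254 CPM on HFD, and the knockout libraries 127, 121 and 130 CPM on chow and 210, 209, 230, 212 and 229 CPM on HFD. The change was log2 0.93 ± 0.08, adjusted p = 1.77e-06 in wild-type and log2 0.79 ± 0.09, adjusted p = 2.21e-05 in knockout, with no overlap between diets. Idh3g in wild-type was at 659, 714, 696 and 663 CPM on chow and 495, 613, 411, 567 and 475 CPM on HFD, and in knockout at 649, 608 and 587 CPM on chow and 487, 563, 551, 644 and 580 CPM on HFD. Idh3g, a regulatory subunit of the NAD-dependent enzyme, fell in wild-type (log2 -0.42 ± 0.10, adjusted p = 0.00546) and not in knockout (log2 -0.12 ± 0.11, adjusted p = 0.445). For Mdh1 the wild-type libraries gave 373, 414, 432 and 344 CPM on chow and 270, 294, 213, 330 and 262 CPM on HFD, and the knockout libraries 366, 378 and 368 CPM on chow and 288, 330, 319, 361 and 345 CPM on HFD. Mdh1, the cytosolic malate dehydrogenase, fell in wild-type (log2 -0.51 ± 0.11, adjusted p = 0.00173), with log2 -0.17 ± 0.11, adjusted p = 0.282 in knockout. Dlst and Ogdh, subunits of the 2-oxoglutarate dehydrogenase complex, fell in wild-type at log2 -0.45 ± 0.14, adjusted p = 0.0196 and log2 -0.35 ± 0.12, adjusted p = 0.0418, and were not called in knockout. Dlst lost its call without chow wild-type 3, and Ogdh without chow wild-type 1, 2 or 3 or HFD wild-type 1, 3 or 5. The other 8 TCA members, Cs, Idh3a, Idh3b, Suclg1, Suclg2, Sucla2, Fh1 and Mdh2, were not called in either genotype, with log2 values from -0.23 to 0.23. With library totals all 8 were called higher in wild-type (log2 0.23 to 0.51), and the falls of Idh3g (0.05), Mdh1 (-0.05), Dlst (0.01) and Ogdh (0.11) were no longer called. The Idh2 to Idh3a count ratio, chosen after the values were seen and given without a test, was 0.134 to 0.181 in chow wild-type, 0.146 to 0.152 in chow knockout, 0.267 to 0.323 in HFD wild-type and 0.216 to 0.254 in HFD knockout.

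Count ratios between 7 pairs of isozymes were tested in 4 comparisons, giving 28 exact two-sided permutation tests. None reached an adjusted p of 0.05, which groups of these sizes could not give for 1 ratio alone even without overlap, and 5 had an unadjusted exact p under 0.05. The Hk2 to Hk1 ratio was 13.6 to 31.6 in chow wild-type and 7.08 to 9.31 in HFD wild-type, and 18.1 to 25.3 and 6.01 to 14.8 in the knockout groups. The log2 difference was -1.38 in wild-type (exact p = 0.00794, adjusted 0.222) and -0.98 in knockout (exact p = 0.0179, adjusted 0.222), each the smallest p that the group sizes allow, without overlap. The other 3 were Pfkp to Pfkl for diet in knockout (-0.23), Suclg2 to Sucla2 for diet in wild-type (0.12) and Pdk4 to Pdk2 for genotype on HFD (0.34), all with an adjusted p of 0.222.

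**Figure D4:**
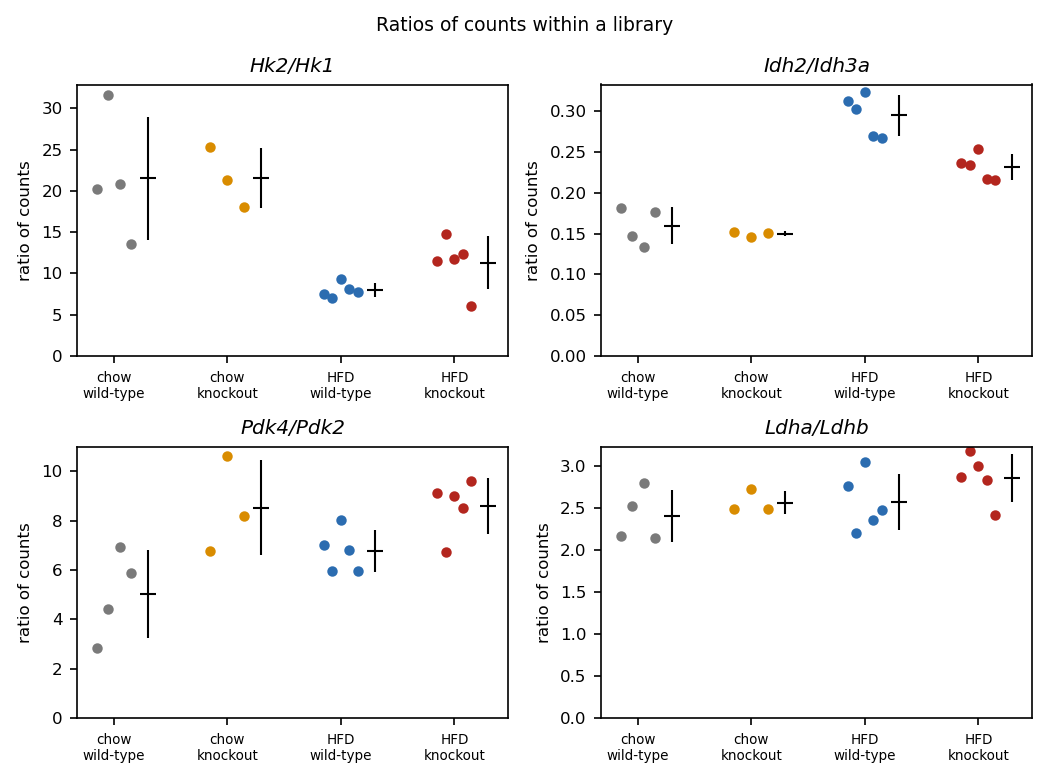
Ratios of counts within each library (points) by group, with mean ± SD beside them and axes from 0. Hk2/Hk1 is lower in the HFD groups, Idh2/Idh3a is higher there with the wild-type HFD range (0.267 to 0.323) above the knockout HFD range (0.216 to 0.254), and Ldha/Ldhb overlaps between all groups.

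Between genotypes none of the 42 members was called on either diet. On chow 0 were called, against 1.06% of all genes tested (187 genes), and 4 had an unadjusted p under 0.05 (15.2% of all genes). DESeq2 and limma-voom also called 0. The median was -0.11, with 32 of 42 lower in the knockout, beside -0.01 over all genes. With library totals the members' median was -0.05, beside 0.05 over all genes. It was -0.07 without chow wild-type 3 and with the muscle sum as a covariate. The groups did not overlap for 8 members, against 12.8% of all genes. Pdk4 gave log2 0.68 ± 0.24, adjusted p = 0.18, with overlapping groups, and Pdp2 log2 0.37 ± 0.15, adjusted p = 0.247, with knockout above wild-type in every library. Fh1 (fumarase) and Idh2 were at log2 -0.28 ± 0.12, adjusted p = 0.296 and log2 -0.20 ± 0.09, adjusted p = 0.327, with knockout below wild-type in every library. All 13 TCA members had negative estimates on chow, from -0.28 to -0.03, except that Suclg2 was at 0.04 with library totals, and none was called. On HFD 0 members were called, against 0.536% of all genes, and 6 had an unadjusted p under 0.05 (12.7% of all genes). The HFD median was 0.15, with 37 of 42 higher in the knockout, and 0 over all genes. With library totals the members' median was 0.02 and 24 of 42 were higher, beside a median of -0.15 over all genes. With the HFD runs of library numbers as a term the members' median was -0.04 and 15 of 42 were higher. In that fit HFD knockout 1 alone, the lowest of its group for 28 of 42 members, sets the knockout level. The median was 0.06 (28 of 42 higher) without HFD wild-type 3, which was singled out after its values were seen. It was 0.03 (26 of 42) without the HFD libraries with a muscle sum above 1000 CPM. That cut left HFD knockout 1 and 3 beside HFD wild-type 2 to 5. Without the HFD libraries with a hepatocyte sum above 100 CPM the median was 0.08 (29 of 42). Idh2 was the 1 member whose HFD groups did not overlap (3.60% of all genes did not), at log2 -0.33 ± 0.08, adjusted p = 0.0637. Mdh1 (log2 0.26 ± 0.10, adjusted p = 0.257), Mpc1 (log2 0.27 ± 0.10, adjusted p = 0.259) and Hk1 (log2 -0.45 ± 0.18, adjusted p = 0.272) came next. Idh2 was called on HFD by DESeq2 (adjusted p = 0.00253), with library totals (0.0138) and without HFD wild-type 3 (0.0443) or 5 (0.0434). It was not called with the HFD runs as a term, a fit that rests on HFD knockout 1 for the knockout.

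**Figure D5:**
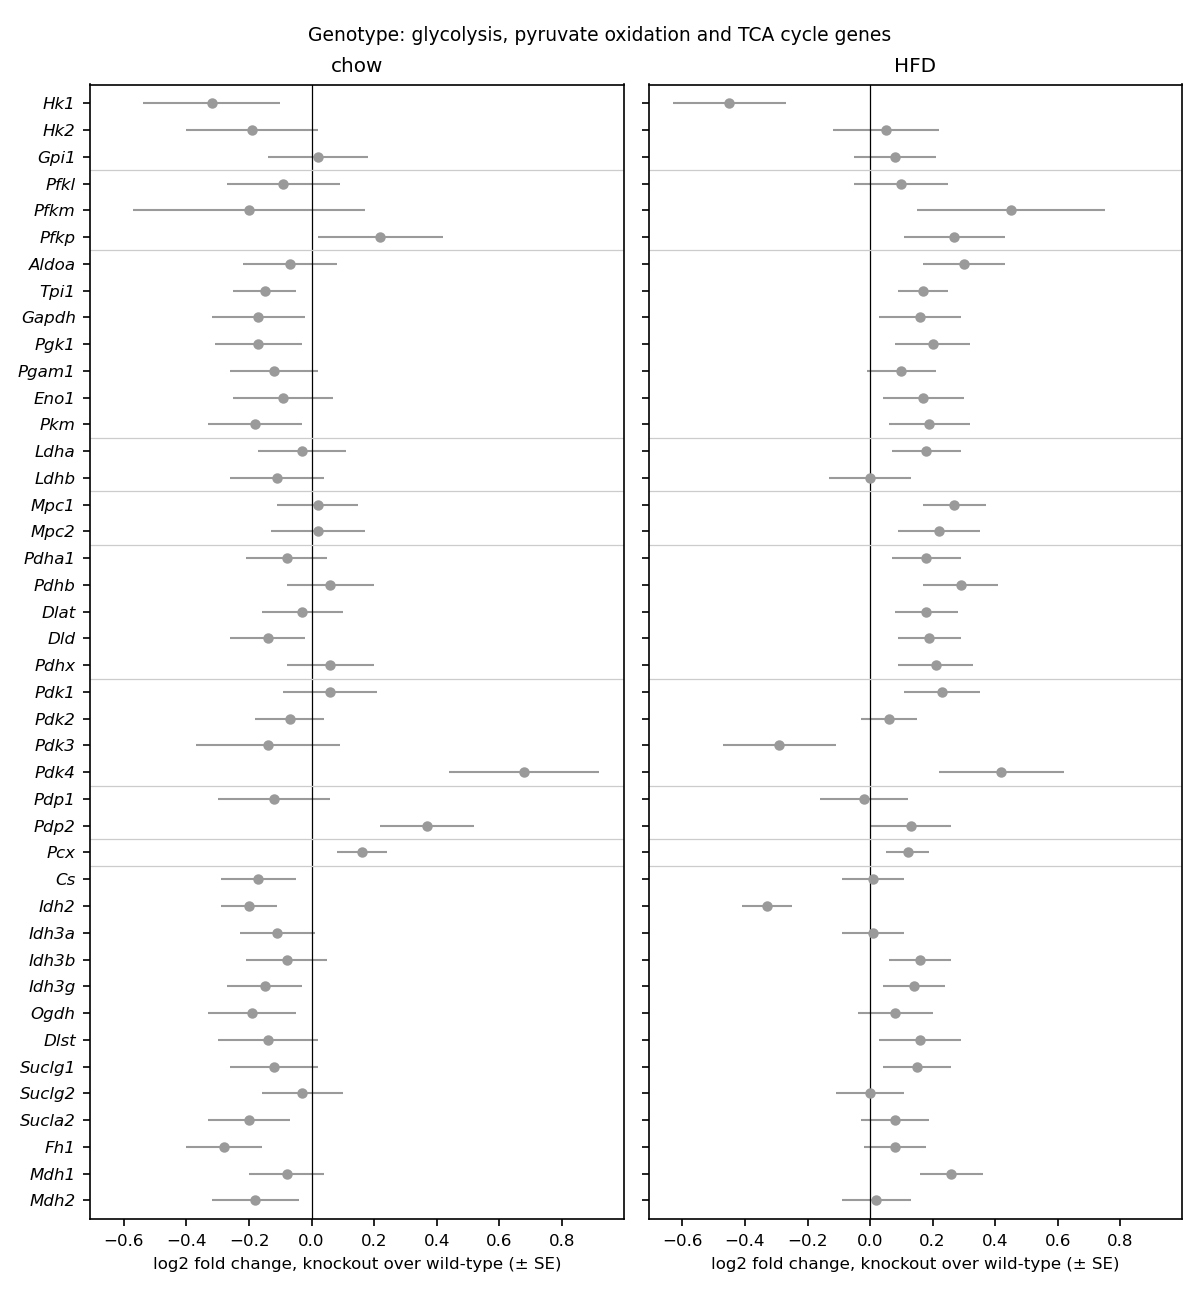
Log2 fold change ± SE of the 42 members, knockout over wild-type, on chow (left) and HFD (right), all grey because none was called. Most estimates lie just left of 0 on chow (32 of 42) and just right of 0 on HFD (37 of 42). On HFD 24 are right of 0 with library totals, where the median of all genes is -0.15, and 15 with the HFD runs as a term. In the fit with runs HFD knockout 1 alone sets the knockout level. Idh2 lies at -0.20 and -0.33.

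Averaged over the diets, Idh2 was the 1 member called for genotype, at log2 -0.26 ± 0.06, adjusted p = 0.0275, against 2.86% of all genes (1.54% lower), and 5 members had an unadjusted p under 0.05, against 18.6% of all genes. Idh2 kept that call in 18 of 28 alternative settings, with log2 values from -0.30 to -0.23, and lost it without chow wild-type 1, without chow knockout 2, 3 or 4, without HFD knockout 4, with the replicate block, with chow or HFD runs taken into account and when muscle-rich or liver-rich HFD libraries were removed. Pdk4 gave log2 0.55 ± 0.16, adjusted p = 0.0723, and was called by DESeq2 (0.00811) and without chow wild-type 3 (0.0299). The genotype by diet interaction was called for 0 members, against 0.0903% of all genes, and 3 had an unadjusted p under 0.05, against 10.4% of all genes. Its smallest p-values belonged to Tpi1 (log2 0.32 ± 0.13, adjusted p = 0.42), Fh1 (log2 0.36 ± 0.16, adjusted p = 0.453) and Mdh1 (log2 0.34 ± 0.16, adjusted p = 0.476), with Dld at log2 0.33 ± 0.16, adjusted p = 0.502. The difference in the number of diet calls, 22 in wild-type and 11 in knockout, is therefore not a called difference between genotypes.

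Genes beside the members were read from lists of the same pathway. On chow, Pfkfb3, which makes the activator of phosphofructokinase, was higher in the knockout (log2 1.20 ± 0.19, adjusted p = 0.00796), and Tigar, which removes it, was lower (log2 -0.58 ± 0.12, adjusted p = 0.0377). They were 2 of 17 other glycolysis genes tested. Pfkfb3 on chow ran from 254 to 428 CPM for wild-type and from 715 to 806 CPM for knockout, and on HFD from 306 to 473 and from 262 to 455 CPM. Pck1, which makes phosphoenolpyruvate, was higher (log2 0.95 ± 0.18, adjusted p = 0.0164) and was 1 of 18 side-route genes called. Of 17 regulators Ppargc1a (log2 1.59 ± 0.29, adjusted p = 0.0161) and Foxo1 (log2 0.70 ± 0.15, adjusted p = 0.0405) were higher. None of the glucose transport, other TCA or pentose phosphate genes was called, and on HFD no gene of any of the 6 lists was called for genotype.

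Counts for the 6 lists under HFD in wild-type stand beside 32.1% of all genes called, 16.9% higher and 15.2% lower. Of 17 other glycolysis genes 2 were higher and 6 lower (8 and 3 with library totals), among them Pfkfb1 (log2 -1.09 ± 0.10, adjusted p = 1.83e-06), Aldoc (log2 -2.11 ± 0.34, adjusted p = 0.000233) and Ldhd (log2 -0.29 ± 0.09, adjusted p = 0.0181). Of 9 glucose and lactate transport genes 3 were called (7 higher and 0 lower with library totals): the insulin-responsive glucose transporter Slc2a4 fell (log2 -0.65 ± 0.12, adjusted p = 0.000677), and Emb (log2 1.21 ± 0.29, adjusted p = 0.00533) and Slc2a1 (log2 0.37 ± 0.11, adjusted p = 0.0171) rose. Of 16 other TCA genes 8 fell and none rose (1 lower and 8 higher with library totals), including Aco1 (log2 -0.41 ± 0.06, adjusted p = 0.000138), Me1 (log2 -0.89 ± 0.18, adjusted p = 0.00183), Me3 (log2 -0.61 ± 0.15, adjusted p = 0.0059) and Sdha (log2 -0.37 ± 0.10, adjusted p = 0.00857). Of 18 side-route genes 2 rose and 5 fell (7 and 1 with library totals), with Gpt2 (alanine aminotransferase) at log2 0.92 ± 0.15, adjusted p = 0.000338, Acly (ATP citrate lyase) at log2 -1.05 ± 0.26, adjusted p = 0.0054, Pdpr at log2 -0.54 ± 0.08, adjusted p = 0.00021 and Lias at log2 -0.29 ± 0.06, adjusted p = 0.00286. Of 8 pentose phosphate genes 6 fell (0 lower and 1 higher with library totals), among them Rpe (log2 -0.40 ± 0.07, adjusted p = 0.000579), G6pdx (log2 -0.54 ± 0.13, adjusted p = 0.00507), Taldo1 (log2 -0.49 ± 0.12, adjusted p = 0.00659) and Tkt (log2 -0.53 ± 0.16, adjusted p = 0.0207). Of 17 regulators 2 rose and 3 fell (11 and 1 with library totals), with Arrdc4 (log2 0.91 ± 0.13, adjusted p = 7.44e-05) and Myc (log2 0.94 ± 0.31, adjusted p = 0.0298) higher and Egln3 (log2 -1.24 ± 0.34, adjusted p = 0.0107) and Mlx (log2 -0.33 ± 0.10, adjusted p = 0.0235) lower. Among the falls named here those of Pfkfb1, Aldoc, Me1, Acly and Egln3 were still called with library totals, while the estimates for Aco1, Sdha, Rpe, Ldhd, Lias and Mlx turned positive. Mean levels were low for Aldoc (0.883 CPM on chow and 0.202 CPM on HFD) and Emb (0.673 and 1.56 CPM).

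Under HFD in knockout, where 25.8% of all genes were called, 6 of 17 other glycolysis genes were called, 1 higher and 5 lower (4 and 3 with library totals), with Pfkfb1 (log2 -1.12 ± 0.10, adjusted p = 4.51e-06), Pfkfb3 (log2 -0.99 ± 0.18, adjusted p = 0.000926) and Aldoc (log2 -1.53 ± 0.35, adjusted p = 0.00502) lower and Tigar (log2 0.52 ± 0.12, adjusted p = 0.00492) higher. Slc2a4 fell (log2 -0.41 ± 0.13, adjusted p = 0.0255) and Slc16a3 rose (log2 2.88 ± 0.73, adjusted p = 0.00913), 2 of 9 transport genes (2 higher and 0 lower with library totals). Without the muscle-rich HFD libraries Slc16a3 was at log2 1.47 and lost its call. Of 16 other TCA genes 2 rose and 2 fell (5 and 0 with library totals): Aco1 (log2 -0.45 ± 0.07, adjusted p = 0.000221) and Me1 (log2 -0.71 ± 0.20, adjusted p = 0.0154) fell, and Me2 (log2 0.39 ± 0.09, adjusted p = 0.0065) and Ogdhl rose. No fold is given for Ogdhl, which had 0 to 1 counts per library in chow knockout and 5 to 17 counts in HFD knockout. Side-route genes included Gpt2 (log2 1.41 ± 0.17, adjusted p = 4.13e-05), higher, and Pck1 (log2 -0.62 ± 0.17, adjusted p = 0.0125), Pdpr (log2 -0.29 ± 0.09, adjusted p = 0.0272) and Slc25a1 (log2 -0.63 ± 0.20, adjusted p = 0.0309), lower, 4 of 18 (5 higher and 0 lower with library totals). Rpe (log2 -0.44 ± 0.08, adjusted p = 0.000769) and G6pdx (log2 -0.40 ± 0.14, adjusted p = 0.0464) were the 2 of 8 pentose phosphate genes that fell (0 with library totals). Of 17 regulators 4 rose and 3 fell (6 and 2 with library totals), with Myc (log2 1.95 ± 0.37, adjusted p = 0.00146), Txnip (log2 0.94 ± 0.19, adjusted p = 0.00199) and Arrdc4 (log2 0.69 ± 0.14, adjusted p = 0.002) higher and Foxo1 (log2 -0.76 ± 0.14, adjusted p = 0.00149) lower. Mean knockout levels were low for Slc16a3 (0.348 CPM on chow and 2.56 CPM on HFD), Aldoc (0.809 and 0.273 CPM) and Myc (0.926 and 3.59 CPM). Averaged over diets, Pfkfb3 (log2 0.57 ± 0.12, adjusted p = 0.0228), Pck1 (log2 0.51 ± 0.11, adjusted p = 0.0266), Ppargc1a (log2 0.95 ± 0.19, adjusted p = 0.017) and Foxo1 (log2 0.42 ± 0.10, adjusted p = 0.0356) were higher in the knockout. Me2 (log2 -0.29 ± 0.06, adjusted p = 0.0254) and Myc (log2 -0.95 ± 0.24, adjusted p = 0.0429) were lower. None of these genes was called for genotype on HFD alone. Mean HFD levels in wild-type and knockout were 399 and 382 CPM for Pfkfb3 and 1690 and 1780 CPM for Pck1. They were 65 and 80.6 CPM for Ppargc1a, 77.5 and 85.2 CPM for Foxo1, 7.11 and 6.23 CPM for Me2 and 4.89 and 3.59 CPM for Myc.

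Per kilobase of exon, with exon lengths from GENCODE vM21, the members spanned a wide range of levels in chow wild-type. Aldoa led at 2070 ± 267 CPM per kb (SD, n = 4) and Gapdh followed at 1860 ± 171 CPM per kb, neighbours that overlapped. Eno1 came next at 969 ± 98.6 CPM per kb, then Pkm, Ogdh, Pdha1 and Mpc1 at 583 to 678 CPM per kb. Idh2 stood at 82.8 ± 5.93 CPM per kb, Hk1 at 6.18 ± 1.85 CPM per kb, Pdp1 at 1.18 ± 0.131 CPM per kb and Pdk3 last at 0.365 ± 0.113 CPM per kb.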

How the data were processed

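RNA sequencing counts of brown adipose tissue were analysed. The authors deposited 1 table of whole-number counts per gene for 17 libraries. The submitters' processing notes list, without roles, the build GRCm39, DESeq, RSEM 1.3.0, STAR 2.7.8a and FastQC. The sources used here name neither annotation nor strand setting, so paralogs and antisense genes may share reads. All columns were mapped to a sample by name (0 were left unmapped).

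Groups came from the labels. In R 4.3.3, edgeR 4.0.16 (filterByExpr, TMM, quasi-likelihood test, all libraries in 1 fit, 1 coefficient per group) tested genotype on each diet, diet in each genotype, their interaction and the averaged genotype effect, two-sided, with Benjamini-Hochberg adjustment over 17717 genes and a threshold of 0.05. Comparisons share groups. limma 3.58.1 (voom) and DESeq2 1.42.0 were alternatives, beside other scalings, no filter, a replicate block, the muscle marker sum, runs of library numbers and libraries left out. The script was tested on simulated data. Ratios of counts used exact permutation tests.

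The members, lists and tests were chosen with earlier results of these data known. All 42 members are accounted for. Library values are given for called members, up to 12 per comparison by adjusted p, and at least 1 per step. Called genes of other lists are named, up to 4 by adjusted p, except 1 that is not reported here by name, though the counts include it. Replicate pairs differed by more than counting noise (lowest chi-square per gene 25.5), so none was treated as a library deposited again. This does not show that libraries are separate animals. Depth was 39.6 to 105 megacounts.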

Additional observations from a re-analysis of the deposited data

Results flagged for a closer look

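Of 126 sets of values examined (42 members in each of the 3 groups with 4 or 5 libraries), 4 held a library far from the others by Dixon's test. Chance flags about 1 in 20 sets, which is more than were seen. Pfkm was at 107 CPM in HFD wild-type 1, the library of that group with the highest muscle marker sum, against 34.2 to 53.5 CPM in the others. Gapdh was at 2400 CPM in chow wild-type 1, against 2870 to 2950 CPM. Pdp1 was at 10.2 CPM in HFD knockout 2, the library with the highest muscle marker sum of all, against 5.70 to 6.85 CPM. Ogdh was at 2760 CPM in chow wild-type 4, against 2990 to 3020 CPM. The part of muscle RNA in the Pfkm and Pdp1 values was not tested.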

How the results depend on the processing

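Scaling mattered most for diet. With library totals in place of TMM factors the wild-type diet calls stayed at 22 but split into 20 higher and 2 lower, and the knockout diet calls went from 11 to 18 (15 higher and 3 lower). With the HFD runs of library numbers as a term 7 members were called for diet in knockout. For genotype on HFD 1 member was called with library totals and with DESeq2, and 0 to 1 with single libraries left out. For the averaged genotype effect 0 were called with the replicate block, without the muscle-rich or the liver-rich HFD libraries, with chow within 1 run and with the HFD runs as a term, 2 with DESeq2, and 0 to 2 with single libraries left out.

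With library totals 19 of 42 members changed sign for diet in wild-type and 14 in knockout. Among genes whose estimate is given, these were, in wild-type, Aco1 (0.06), Dlat (0.11), Dlst (0.01), Hk2 (0.40), Idh3g (0.05), Ldha (0.15), Ldhb (0.09), Ldhd (0.18), Lias (0.18), Mlx (0.14), Ogdh (0.11), Pdk4 (0.29), Rpe (0.07) and Sdha (0.10), and in knockout Aldoa (0.16), Gapdh (0.08), Idh3g (0.14), Ldha (0.16), Mdh1 (0.09) and Pdha1 (0.03). Hk2 in wild-type was 0.00 with chow within 1 run and from -0.14 to 0.04 with single libraries left out, Pdk4 in wild-type from -0.40 to 0.02, and Pfkl in knockout 0.00 with the HFD runs as a term. Pfkl in wild-type was -0.01 with the muscle sum as a covariate, -0.03 with chow within 1 run and -0.09 to 0.13 with single libraries left out.

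Same-numbered libraries did not deviate together (r from -0.72 to 0.21 between genotypes). Each deviation is from the mean of a small group, so these values cannot show whether the numbers pair animals, and no label says so. With the replicate block 21 members were called for diet in wild-type and 10 in knockout. Diet and run of library numbers cannot be told apart, and genotype follows these runs in part. The chow knockout group has 3 libraries, and intervals cover these libraries only.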
